A study of Mus musculus with 26 samples.

Results

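The 9 genes described here encode components of the basement membrane and were followed across all 15 RNA-seq libraries of a study of mouse embryonic stem cells (mESCs) that lack Prdm14 or its partner Mtgr1. They were selected by name from the gene tables: the laminin chains Lama1, Lama5 and Lamc1, the type IV collagen chains Col4a1 and Col4a2, the nidogens Nid1 and Nid2, the perlecan gene Hspg2, and Sparc. These are 9 of the 24015 genes measured, and all 9 are among the 13477 genes that passed the filter on low values. The genes are known from parietal endoderm, but the regulators of that cell type were low in these libraries, as described further on, so they are called basement membrane genes here.

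A basement membrane is a thin sheet of extracellular matrix on which epithelial cells rest. Laminins, each made of an alpha, a beta and a gamma chain, form one polymer, type IV collagen forms another, and nidogens and the heparan sulfate proteoglycan perlecan join them. Sparc is a secreted glycoprotein that binds collagen. In the early mouse embryo the parietal endoderm secretes these proteins in large amounts into Reichert's membrane, and embryonic stem cells themselves make laminin and type IV collagen.

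All lines derive from Stella:GFP mESCs, a reporter line for germ cell fate, and were maintained in 2i+LIF, a serum-free medium with the MEK inhibitor PD0325901 and the GSK3β inhibitor CHIR99021, on dishes coated with laminin. For RNA-seq the cells were grown for 5 days without feeders in serum+LIF, except for 2 libraries of wild-type (wt) cells in 2i+LIF; wt cells in serum+LIF have 1 library. The Prdm14-/- cells are the single-cell clones G6 and F10 made with CRISPR-Cas9, and the Mtgr1-/- cells are the single-cell clones A3, C1 and C3. Each clone was also rescued with a FLAG-HA tagged cDNA, which gave FH-Prdm14 (2 libraries), E294K (2 libraries) and FH-Mtgr1 (3 libraries). E294K is a point mutant of Prdm14 with impaired binding to Mtgr1, and both Prdm14 cDNAs are overexpressed, so that FH-Prdm14 is a restored and overexpressing line at once. Within a condition each library is a separate clone or, for wt 2i+LIF, a separately labelled library. The same clones recur in a knockout and its rescue lines, and the main model leaves this pairing out. The p-values measure only the spread between these libraries.

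The libraries held between 10668572 and 21218414 reads on genes (median 13793727), and the fewest reads on any of the 9 genes in any library were 499, for Col4a2 in the FH-Prdm14 line of clone F10. Prdm14 was at 2.77 RPKM (a read count corrected for gene length and for library size) in wt serum+LIF, at 1.96 and 3.61 in the Prdm14-/- clones, and at 79.8 to 116 in the FH-Prdm14 and E294K lines. Cbfa2t2, which encodes Mtgr1, was at 18.0 to 19.9 RPKM in the Mtgr1-/- clones and at 25.5 to 28.0 in the FH-Mtgr1 lines. Its level was 40.7 in wt serum+LIF, 16.6 and 16.8 in the Prdm14-/- clones and 21.4 to 32.6 in the other libraries. Small edits in an exon need not lower the mRNA of either gene. Some libraries stood apart from the others of their condition. A chi-square statistic of the reads, divided by its degrees of freedom, was 46.9 and 42.8 for Mtgr1-/- clone C3 against clones A3 and C1, and 6.99 between A3 and C1. It was 69.2 between the 2i+LIF libraries and 24.4 between the Prdm14-/- clones. For the FH-Mtgr1 line of C3 it was 21.7 and 27.7 against the lines of A3 and C1, and it was 9.44 between the lines of A3 and C1. The GC content of a gene's transcript correlated with the deviation of clone C3 from the other Mtgr1-/- libraries (Spearman rho of 0.576 across 12046 genes, which are not independent) and with that of Prdm14-/- clone G6 from clone F10 (0.435). Among the 9 genes, Hspg2, Col4a2, Lama5 and Col4a1 lie at the 95.8, 95.1, 93.5 and 85.4 percentile of transcript GC content, and the others lie between the 45.3 (Nid1) and 68.3 (Nid2) percentile.

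The endoderm regulators that would mark parietal or primitive endoderm were low in these libraries. Gata4 lay between 0.686 and 5.69 RPKM, Gata6 between 0.364 and 4.68, Sox17 between 0.0763 and 2.68, Sox7 between 0.143 and 1.14, Foxa2 between 0.0265 and 0.690 and Pdgfra between 0.0974 and 2.30. In Mtgr1-/- cells, where type IV collagen was at its highest, the Gata4 level was 0.686, 1.22 and 1.51 RPKM in clones A3, C1 and C3, against 4.02, 5.61 and 5.21 in the FH-Mtgr1 lines. Gata4, Gata6 and Pdgfra fell in Mtgr1-/- cells relative to FH-Mtgr1, by 1.75, 1.59 and 1.06 on the log2 scale (limma, adjusted p = 0.00065, 0.0021 and 0.0017). Of all genes tested, 26.1% were called lower and 26.2% higher in this comparison. Of the 9 tested genes of the list of 13 endoderm markers 3 fell and 3 rose there. Among the latter, Fst, an activin antagonist, rose by 2.17, and Snai1 and Plat rose by 1.18 and 0.80 (adjusted p = 0.00014, 0.0014 and 0.0094). Against wt serum+LIF, 5 of the 9 rose and 0 fell in Mtgr1-/- cells (14.9% and 22.1% of all genes), with a median of 0.90 (limma, 3 called without clone C3). In Prdm14-/- cells 3 rose and 0 fell relative to FH-Prdm14, namely Dab2, an adaptor protein of endocytosis, by 2.00, the parathyroid hormone receptor Pth1r by 1.63 and Gata4 by 1.35 (limma, adjusted p = 0.00012, 0.0071 and 0.024), and 1 was called without clone F10. Of all genes tested, 11.4% were called higher and 13.8% lower in Prdm14-/- cells relative to FH-Prdm14. Against wt serum+LIF 3 of the 9 markers rose and 0 fell as well (11.7% and 13.7% of all genes). The summed level of the list was 21.6 to 33.3 RPKM in Prdm14-/- cells and 11.8 to 14.3 in FH-Prdm14, 19.7 to 26.9 in Mtgr1-/- cells and 18.4 to 24.1 in FH-Mtgr1, and 12.0 in wt serum+LIF. The part of these markers in the changes of the 9 genes was not tested. The Prdm14-/- clones differed, with Gata6 at 1.54 RPKM in G6 and 4.68 in F10 and Sox17 at 0.800 and 2.68.

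**Figure D1:**
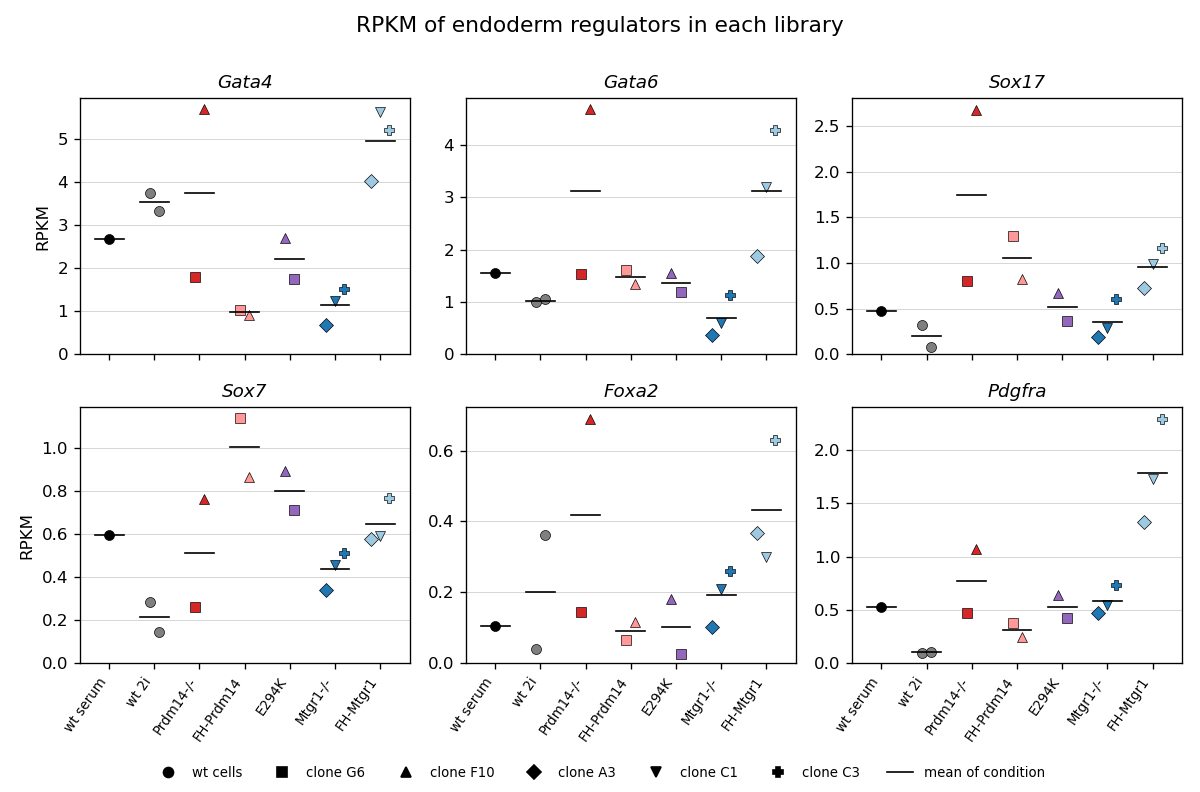
RPKM of Gata4, Gata6, Sox17, Sox7, Foxa2 and Pdgfra in each of the 15 libraries, by condition on the x axis, on linear axes that start at 0; symbols mark the clone and the black line the mean of the condition. The 3 Mtgr1-/- clones lie below the 3 FH-Mtgr1 lines for each gene, and Prdm14-/- clone F10 lies above clone G6.

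The upstream regions of 3 of the genes are shown because Lama5 and Hspg2 varied together across the libraries while Nid1 varied differently. RefSeq promoter windows (GRCm38.p6) were found for 6 of the 9 genes, with none for Lama1, Lamc1 and Nid2. The 250 bases before the annotated start are given 5′ to 3′ on the gene's strand, with the GC box (GGGCGG, or CCGCCC on the other strand) in capitals. They lie at chr2:180225860-180226109 (minus strand) for Lama5, chr4:137468553-137468802 (plus) for Hspg2 and chr13:13437352-13437601 (plus) for Nid1.
Lama5: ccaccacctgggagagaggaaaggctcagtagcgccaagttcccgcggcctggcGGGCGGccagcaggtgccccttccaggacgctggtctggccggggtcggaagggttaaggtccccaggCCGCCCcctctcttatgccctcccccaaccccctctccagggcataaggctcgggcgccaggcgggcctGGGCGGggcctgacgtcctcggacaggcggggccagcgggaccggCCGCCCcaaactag
Hspg2: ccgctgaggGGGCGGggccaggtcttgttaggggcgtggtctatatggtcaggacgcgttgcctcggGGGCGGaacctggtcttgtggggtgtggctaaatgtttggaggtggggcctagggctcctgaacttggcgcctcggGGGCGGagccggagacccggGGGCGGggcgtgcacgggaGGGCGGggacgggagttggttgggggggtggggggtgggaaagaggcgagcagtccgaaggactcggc
Nid1: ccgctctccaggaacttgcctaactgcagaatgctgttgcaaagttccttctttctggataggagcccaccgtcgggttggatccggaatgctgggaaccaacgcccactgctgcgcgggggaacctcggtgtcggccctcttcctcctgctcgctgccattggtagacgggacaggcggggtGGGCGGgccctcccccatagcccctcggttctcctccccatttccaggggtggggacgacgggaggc

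Over the whole window of 300 bases the GC box was found 5 times in Hspg2, 4 times in Lama5, 3 times in Col4a2, once each in Col4a1 and Nid1 and not in Sparc, and 35.6% of 32817 such windows hold at least 1. The letters AGATAA, read by GATA factors, and GGTCTCTAA, a form of the Prdm14 motif, were searched on both strands and occur in none of the 6 windows, against 11.2% and 0.256% of all windows. A match is a description of the sequence and not a binding site. Col4a1 and Col4a2 lie head to head on chromosome 8. In NCBIM37 (mm9) Col4a1 runs on the minus strand from 11198423 to 11312826 and Col4a2 on the plus strand from 11312805 to 11449287, so that their annotated starts overlap by 22 bases. The counting is not stated to use strand, so reads from this overlap could not be told apart.

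In Mtgr1-/- cells relative to their rescue line FH-Mtgr1, 6 of the 9 genes rose and 0 fell at an adjusted p under 0.05 (limma), where 26.2% of all genes tested were called higher and 26.1% lower. The 6 were Col4a1, Col4a2, Nid1, Lamc1, Hspg2 and Sparc, and the median change of the 9 was 0.83 on the log2 scale, against -0.01 over all genes tested. In Prdm14-/- cells relative to FH-Prdm14, Col4a1, Col4a2, Lama5 and Hspg2 rose and Nid1 fell, where 11.4% of all genes were called higher and 13.8% lower. The median there was 0.42, against -0.09 over all genes. Since bulk RNA was measured, a change in the share of cells that express a gene and a change in RNA per cell cannot be told apart.

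Against wt serum+LIF, which is the same single library in each comparison, 4 of the 9 genes rose and 1 fell in Mtgr1-/- cells (14.9% of all genes called higher and 22.1% lower), and 5 rose and 1 fell in Prdm14-/- cells (11.7% and 13.7%). The spread in these comparisons comes from the other conditions. In E294K relative to FH-Prdm14, Nid1 fell and 0 of the 9 rose (13.2% of all genes called lower and 6.35% higher), and relative to Prdm14-/- 1 rose and 5 fell (15.1% and 17.8%). Between the knockouts, 2 of the 9 were higher and 3 lower in Mtgr1-/- than in Prdm14-/- cells (14.4% and 21.1%), and between the rescue lines 6 were higher and 2 lower in FH-Prdm14 than in FH-Mtgr1 (26.2% and 15.4%). In wt cells, 3 of the 9 genes were higher in 2i+LIF than in serum+LIF and 0 were lower (9.28% and 13.6%).

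**Figure D2:**
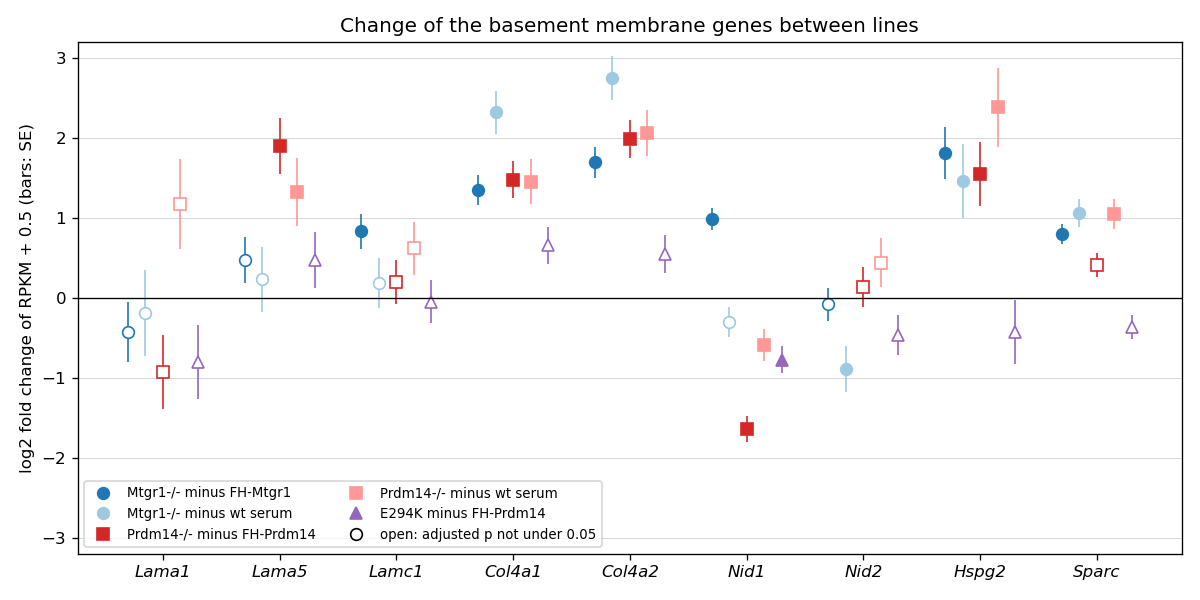
Log2 fold change of RPKM + 0.5 (y axis) for each of the 9 genes (x axis) in 5 comparisons; bars are standard errors of the limma fit, and filled symbols have an adjusted p under 0.05. Col4a1, Col4a2 and Hspg2 are higher in both knockouts against both references, and Nid1 is higher in Mtgr1-/- cells but lower in Prdm14-/- cells against their own rescue lines.

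The type IV collagen chains, which assemble together into the network that gives the basement membrane its strength, rose in each comparison of a knockout with its rescue line or with wt serum+LIF, as did Hspg2. Col4a1 was at 58.8, 54.5 and 60.0 RPKM in Mtgr1-/- clones A3, C1 and C3 and at 20.6, 25.1 and 21.6 in the FH-Mtgr1 lines of the same clones. In Prdm14-/- clones G6 and F10 it was at 29.6 and 33.4 RPKM, in the FH-Prdm14 lines of G6 and F10 at 12.4 and 9.69, and in wt serum+LIF at 11.1. Both knockouts lay above their rescue lines and above the wt library without overlap. The change was 1.35 ± 0.19 (SE) on the log2 scale in Mtgr1-/- cells relative to FH-Mtgr1 (limma, adjusted p = 0.00011) and 1.48 ± 0.23 in Prdm14-/- cells relative to FH-Prdm14 (adjusted p = 0.00071). Against wt serum+LIF it was 2.32 ± 0.27 and 1.46 ± 0.28 (limma, adjusted p = 0.00011 and 0.0058).

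Col4a2 followed the same order at a lower level per length. Clones A3, C1 and C3 without Mtgr1 had 39.3, 38.1 and 47.9 RPKM. In FH-Mtgr1 it stood at 11.3, 15.0 and 11.3 RPKM, and in wt serum+LIF at 5.72. The Prdm14-/- clones had 26.6 and 24.5 RPKM and the FH-Prdm14 lines 6.80 and 5.37. Again no knockout library overlapped a reference library. Col4a2 rose by 1.70 ± 0.19 in Mtgr1-/- cells relative to FH-Mtgr1 and by 1.99 ± 0.24 in Prdm14-/- cells relative to FH-Prdm14 (limma, adjusted p = 2.8e-05 and 0.00013). Relative to wt serum+LIF it rose by 2.76 ± 0.27 and 2.07 ± 0.29 (limma, adjusted p = 4.7e-05 and 0.0013). With an adjustment for GC content the rise in Prdm14-/- cells against the wt library was 1.43 for Col4a2 and 1.03 for Col4a1, and it was still called.

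The collagen chains were higher in Mtgr1-/- than in Prdm14-/- cells, by 0.87 ± 0.21 for Col4a1 and 0.69 ± 0.22 for Col4a2 (limma, adjusted p = 0.0080 and 0.027). For Col4a1 that call was lost without Prdm14-/- clone G6 (adjusted p = 0.065), and for Col4a2 without either Prdm14-/- clone or without Mtgr1-/- clone A3 or C3 (adjusted p up to 0.13). The level in FH-Mtgr1 was itself above that in FH-Prdm14, with FH-Prdm14 minus FH-Mtgr1 at -1.0 ± 0.21 and -0.98 ± 0.22 on the log2 scale (limma, adjusted p = 0.0031 and 0.0039). For Col4a2 this call was lost without the FH-Prdm14 line of clone F10 (adjusted p = 0.052). The change against the own rescue line did not differ between the knockouts at the threshold, with a difference of -0.13 ± 0.30 for Col4a1 and -0.29 ± 0.31 for Col4a2 (Mtgr1 minus Prdm14, limma adjusted p = 0.77 and 0.50).

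E294K lay between the Prdm14-/- and FH-Prdm14 cells for both chains. Col4a1 was at 19.6 RPKM in the F10 line and 15.8 in the G6 line, and Col4a2 was at 10.8 and 7.61. No E294K library overlapped a library of the knockout or of FH-Prdm14. Relative to Prdm14-/- cells Col4a1 fell by 0.82 and Col4a2 by 1.44 (limma, adjusted p = 0.019 and 0.0014). Relative to FH-Prdm14 the differences of 0.66 ± 0.23 and 0.55 ± 0.24 missed the threshold (limma, adjusted p = 0.063 and 0.12). Across all genes the E294K changes were related to transcript GC content, with a Spearman rho of -0.397 relative to FH-Prdm14 and -0.418 relative to Prdm14-/-. After the adjustment for GC content the differences from FH-Prdm14 were 1.00 for Col4a1 and 1.04 for Col4a2 and were called (limma, adjusted p = 0.0031 and 0.0018), whereas the difference of Col4a1 from the knockout was -0.44 and was not (adjusted p = 0.094). That of Col4a2 from the knockout was -0.82 and was called (limma, adjusted p = 0.0050). The Col4a1 call was also lost without either Prdm14-/- clone or the E294K line of G6.

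Across the 15 libraries Col4a1 and Col4a2 had a Pearson r of 0.982 on the log2 scale, the highest among the 36 pairs of the 9 genes, where the libraries share lines, clones and conditions. The ratio of Col4a1 to Col4a2 RPKM was 1.12 and 1.36 in Prdm14-/- cells and 1.25 to 1.5 in Mtgr1-/- cells. In wt serum+LIF it was 1.95, in FH-Prdm14 1.80 and 1.82, in E294K 1.81 and 2.08 and in FH-Mtgr1 1.67 to 1.91. The knockout libraries thus had a more even level of the chains per length than the serum+LIF libraries of the other lines, without overlap. In 2i+LIF the ratio was 1.67 and 1.46, and the latter lies within the Mtgr1-/- range. The ratios were not adjusted for GC content, and Col4a2 lies at a higher percentile of it than Col4a1 (95.1 and 85.4). For Mtgr1-/- against FH-Mtgr1 a two-sided exact permutation test gave p = 0.1, the smallest value that 3 libraries against 3 allow.

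**Figure D3:**
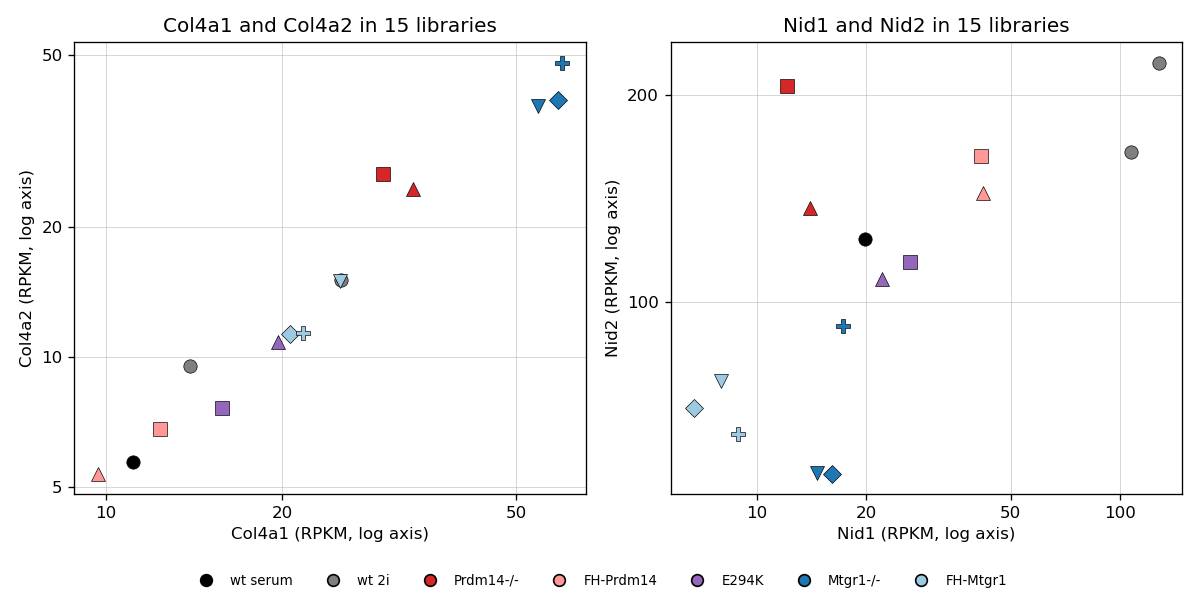
Left, Col4a2 against Col4a1, and right, Nid2 against Nid1, in RPKM on log axes, with 1 point per library, colours for the conditions and symbols for the clones as in the plots of levels. The collagen chains lie along a line with Mtgr1-/- at the top, whereas the nidogens spread apart, with the Prdm14-/- clones at 12.2 and 14.0 RPKM of Nid1 but 206 and 137 RPKM of Nid2.

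The nidogens, which bridge the laminin and collagen polymers, behaved differently from each other. Nid1 had the widest range of the 9 genes, from 6.73 RPKM in the FH-Mtgr1 line of A3 to 128 in a 2i+LIF library, a range of 19.0-fold. It was at 128 and 107 RPKM in 2i+LIF and at 19.9 in serum+LIF, a rise of 2.53 ± 0.20 (limma, adjusted p = 1.6e-05). In FH-Prdm14 it was at 41.3 and 42.0 RPKM and in the E294K lines at 22.1 (F10) and 26.4 (G6). The knockouts were lower, at 12.2 and 14.0 RPKM in Prdm14-/- cells and 16.1, 14.7 and 17.3 in Mtgr1-/- cells, and FH-Mtgr1 was lowest at 6.73, 7.97 and 8.89. No neighbouring conditions in this order overlapped.

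Relative to the own rescue line, Nid1 fell by 1.64 in Prdm14-/- cells (SE 0.16, limma adjusted p = 4.4e-05) and rose by 0.99 ± 0.13 in Mtgr1-/- cells (adjusted p = 9.0e-05). The difference between these changes was 2.62 ± 0.21 (limma, adjusted p = 2.2e-05, 31.4% of all genes called). Against the shared wt serum+LIF library the 2 knockouts pointed the same way, with -0.59 ± 0.20 for Prdm14-/- and -0.30 ± 0.19 for Mtgr1-/- cells (adjusted p = 0.049 and 0.22). The first of these was called at the threshold, and was lost without clone G6 (adjusted p = 0.19), under median-of-ratios scaling and with an adjustment for GC content. The knockouts differed from each other by 0.28 ± 0.15 (Mtgr1-/- minus Prdm14-/-, adjusted p = 0.16), and the rescue lines by 2.34 ± 0.15 (FH-Prdm14 minus FH-Mtgr1, adjusted p = 2.2e-06). E294K was below FH-Prdm14, with a difference of -0.77 ± 0.16, and above Prdm14-/-, with 0.87 ± 0.16 (limma, adjusted p = 0.0068 and 0.0029). The call against FH-Prdm14 was lost without either FH-Prdm14 line or the E294K line of clone F10 (adjusted p up to 0.092).

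Nid2 was higher than Nid1 per length in every library, with a ratio between 1.55 and 17.0. Its levels were 206 and 137 RPKM in the Prdm14-/- clones G6 and F10 and 163 and 144 in the FH-Prdm14 lines, which overlap. In the Mtgr1-/- clones it was at 56.3, 56.5 and 92.2 RPKM and in the FH-Mtgr1 lines at 70.1, 76.6 and 64.4, which overlap as well. Neither knockout differed from its rescue line at the threshold, with 0.13 ± 0.25 for Prdm14-/- and -0.08 ± 0.20 for Mtgr1-/- (limma, adjusted p = 0.74 and 0.77). Instead Nid2 separated the Mtgr1 lines from the rest. It was lower in Mtgr1-/- than in Prdm14-/- cells by 1.33 on the log2 scale (Mtgr1-/- minus Prdm14-/- -1.33 ± 0.23, limma adjusted p = 0.0010) and higher in FH-Prdm14 than in FH-Mtgr1, by 1.12 ± 0.23 (adjusted p = 0.0025). Relative to wt serum+LIF, at 123 RPKM, the Mtgr1-/- clones were at -0.89 ± 0.29 (adjusted p = 0.030), a call lost without clone A3 or C1 and under median-of-ratios scaling (adjusted p = 0.070, 0.072 and 0.057), and when the other conditions were left out of the model (adjusted p = 0.12). In 2i+LIF Nid2 was at 223 and 166 RPKM (0.63 ± 0.31, adjusted p = 0.15).

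The laminin alpha chains differed in level and in direction. Lama5, the alpha chain typical of epithelial basement membranes in the embryo and the adult, was at 191 and 116 RPKM in Prdm14-/- clones G6 and F10 and at 42.5 and 36.4 in the FH-Prdm14 lines. The wt serum+LIF library had 59.1 RPKM and the E294K lines 54.6 (F10) and 55.6 (G6). The Prdm14-/- clones lay above all of these without overlap. Lama5 rose by 1.91 ± 0.35 relative to FH-Prdm14 and by 1.33 ± 0.43 relative to wt serum+LIF (limma, adjusted p = 0.0020 and 0.041). The latter call was lost without clone G6 (0.96, adjusted p = 0.21) and with an adjustment for GC content (0.74, adjusted p = 0.077).

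In Mtgr1-/- cells Lama5 was at 56.5, 51.9 and 115 RPKM and in FH-Mtgr1 at 48.3, 52.9 and 48.8. Clone C3, one of the libraries that stood apart, was high, A3 lay just above the rescue lines and C1 lay within their range, and the difference of 0.47 ± 0.29 was not called (limma, adjusted p = 0.18). The change in Mtgr1-/- cells was lower than that in Prdm14-/- cells, with a difference of -1.43 ± 0.45 (limma, adjusted p = 0.030). This was lost without Prdm14-/- clone G6 (-1.07, adjusted p = 0.14), and also without either FH-Prdm14 line, Mtgr1-/- clone A3 or C1 or the FH-Mtgr1 line of C1. E294K relative to Prdm14-/- was at -1.43 ± 0.35 (limma, adjusted p = 0.010), which was lost without clone G6 (adjusted p = 0.12) or without either E294K line. Relative to FH-Prdm14 it was at 0.48 ± 0.35 (adjusted p = 0.35), and at 0.94 after the adjustment for GC content, when it was called (adjusted p = 0.012). The 2i+LIF libraries had 46.5 and 26.8 RPKM of Lama5 (-0.74 ± 0.43 against serum+LIF, adjusted p = 0.23).

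Lama1, the alpha chain typical of the earliest embryonic basement membranes and of Reichert's membrane, was the lowest of the 3 laminin genes in each library. It was highest in FH-Prdm14, at 27.7 and 29.5 RPKM, and was at 13.7 (G6) and 19.1 (F10) in E294K. The Prdm14-/- clones were apart from each other, with 8.47 RPKM in G6 and 25.6 in F10, and the 2i+LIF libraries as well, with 20.2 and 9.30. All Mtgr1 lines were low, with 4.03, 5.27 and 7.51 RPKM in Mtgr1-/- cells and 5.57, 8.70 and 8.68 in FH-Mtgr1, and wt serum+LIF was at 6.27. The clone with more Lama1, F10, was also the Prdm14-/- clone with more Gata4, Gata6, Sox17 and Pdgfra. The sum of the 13 endoderm markers was 33.3 RPKM in F10 and 21.6 in G6, but Snai1 of that list was higher in G6 (5.93 RPKM). A link of these markers to Lama1 was not tested.

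With all libraries in the fit, no comparison of a knockout with its rescue line or with wt serum+LIF was called for Lama1. The difference from FH-Prdm14 was -0.93 ± 0.46 in Prdm14-/- cells (limma, adjusted p = 0.17) and that from FH-Mtgr1 was -0.43 ± 0.38 in Mtgr1-/- cells (adjusted p = 0.35). Against wt serum+LIF the Prdm14-/- cells were at 1.18 ± 0.57 (adjusted p = 0.14). Both values for Prdm14-/- cells turned on the clone. Without F10 they were -1.70 (adjusted p = 0.020) and 0.41 (adjusted p = 0.57), and without G6 they were -0.15 (adjusted p = 0.89) and 1.95 (adjusted p = 0.047). The rescue lines differed, by 1.86 ± 0.42 (FH-Prdm14 minus FH-Mtgr1, adjusted p = 0.0045). The difference between the knockouts was -1.37 ± 0.42 (Mtgr1-/- minus Prdm14-/-, adjusted p = 0.025), and it was -0.60 (adjusted p = 0.32) without clone F10 and -2.14 (adjusted p = 0.0052) without G6. It was also lost without Mtgr1-/- clone A3 or C1. As a result Lama5 exceeded Lama1 in each library, by 1.24 to 1.53 times in FH-Prdm14 and by 22.6 times in Prdm14-/- clone G6.

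Lamc1, the gamma chain that partners with either alpha chain, had 1 of the narrower ranges of the 9 genes, 4.13-fold. It was at 53.4, 51.1 and 78.4 RPKM in clones A3, C1 and C3 of Mtgr1-/- cells and at 34.7, 40.3 and 26.5 in FH-Mtgr1, without overlap, and rose by 0.83 ± 0.22 (limma, adjusted p = 0.0076). Wt serum+LIF was at 52.5 RPKM, within the range of the knockout (0.19 ± 0.31, adjusted p = 0.67). The Prdm14-/- clones had 87.6 and 74.9 RPKM and the FH-Prdm14 lines 72.7 and 68.4, which do not overlap but differed by only 0.20 ± 0.27 (adjusted p = 0.64). E294K was at 69.5 and 67.1 RPKM, and the 2i+LIF libraries were at 109 and 61.3. FH-Mtgr1 was therefore the condition with low Lamc1, and FH-Prdm14 exceeded it by 1.07 ± 0.25 (adjusted p = 0.0052).

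The beta chain Lamb1, not among the 9, completes both laminins. It was at 13.4 and 12.9 RPKM in 2i+LIF and at 55.5 in serum+LIF, a fall in 2i+LIF (-2.04 ± 0.26, limma, adjusted p = 0.00034) at a time when Lamc1 was at 109 and 61.3 RPKM. The ratio of Lamc1 to Lamb1 was therefore 8.18 and 4.75 in 2i+LIF, and between 0.341 and 1.38 in the serum+LIF libraries. The alternative beta chain Lamb2 was at 31.7 and 17.5 RPKM in 2i+LIF and at 5.80 in wt serum+LIF (1.93 ± 0.38, limma, adjusted p = 0.0045). Between knockouts and rescue lines Lamb1 was called once, at the threshold, in Prdm14-/- relative to FH-Prdm14 (0.62 ± 0.21, limma, adjusted p = 0.050), and in Mtgr1-/- relative to FH-Mtgr1 it was at -0.37 ± 0.17 (adjusted p = 0.087).

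Hspg2, which encodes perlecan, rose in both knockouts. It was at 77.8, 74.5 and 178 RPKM in Mtgr1-/- clones A3, C1 and C3 and at 28.4, 31.0 and 25.8 in FH-Mtgr1. In the Prdm14-/- clones G6 and F10 it was at 227 and 161 RPKM, in FH-Prdm14 at 69.3 and 60.8 and in wt serum+LIF at 36.2. All knockout libraries lay above these references, and clones C3 and G6 were the highest of their conditions. The change relative to the rescue line was 1.82 ± 0.33 for Mtgr1-/- and 1.55 ± 0.40 for Prdm14-/- cells (limma, adjusted p = 0.00065 and 0.014).

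Without clone C3 the first of these was 1.41 (limma, adjusted p = 0.0014). The second was lost without clone G6 (adjusted p = 0.13) or without either FH-Prdm14 line. Against wt serum+LIF, Hspg2 rose by 1.47 ± 0.46 in Mtgr1-/- cells (limma, adjusted p = 0.026). That call was lost when the other conditions were left out of the model. In Prdm14-/- cells Hspg2 rose by 2.39 ± 0.49 against wt serum+LIF (limma, adjusted p = 0.0072). With an adjustment for GC content the latter was 1.73 and was called (adjusted p = 0.0036), and without clone G6 it missed the threshold (adjusted p = 0.052). Hspg2 in E294K was at 47.5 and 49.1 RPKM, and its difference from FH-Prdm14 of -0.42 ± 0.40 was not called (adjusted p = 0.48) and was 0.085 after the adjustment for GC content. Relative to Prdm14-/- cells it fell by 1.97 in E294K (adjusted p = 0.0041, and 0.050, just over the threshold, without clone G6), and by 1.33 after the adjustment for GC content (adjusted p = 0.0026). The 2i+LIF libraries had 76.5 and 33.5 RPKM, on either side of the wt serum+LIF library.

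Sparc had the highest mean level of the 9 genes in 2i+LIF and the narrowest range, 3.48-fold. It was at 209 and 243 RPKM in 2i+LIF and at 69.8 in serum+LIF, a rise of 1.69 ± 0.19 (limma, adjusted p = 0.00014). Mtgr1-/- cells had 133, 138 and 172 RPKM and FH-Mtgr1 had 75.5, 85.3 and 92.0, without overlap, and the rise was 0.80 ± 0.12 (adjusted p = 0.00023). The Prdm14-/- clones had 139 and 152 RPKM and the FH-Prdm14 lines 106 and 112. Here too the groups did not overlap, but the difference of 0.42 ± 0.15 missed the threshold (adjusted p = 0.065), and it was called after an adjustment for GC content (adjusted p = 0.038). Relative to the wt library Sparc rose by 1.07 ± 0.18 in Mtgr1-/- and 1.05 ± 0.19 in Prdm14-/- cells (adjusted p = 0.00081 and 0.0039). E294K, at 86.5 and 82.2 RPKM, was below Prdm14-/- (-0.78 ± 0.15, adjusted p = 0.0033). The knockouts overlapped each other and differed by 0.01 ± 0.14 (adjusted p = 0.96).

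**Figure D4:**
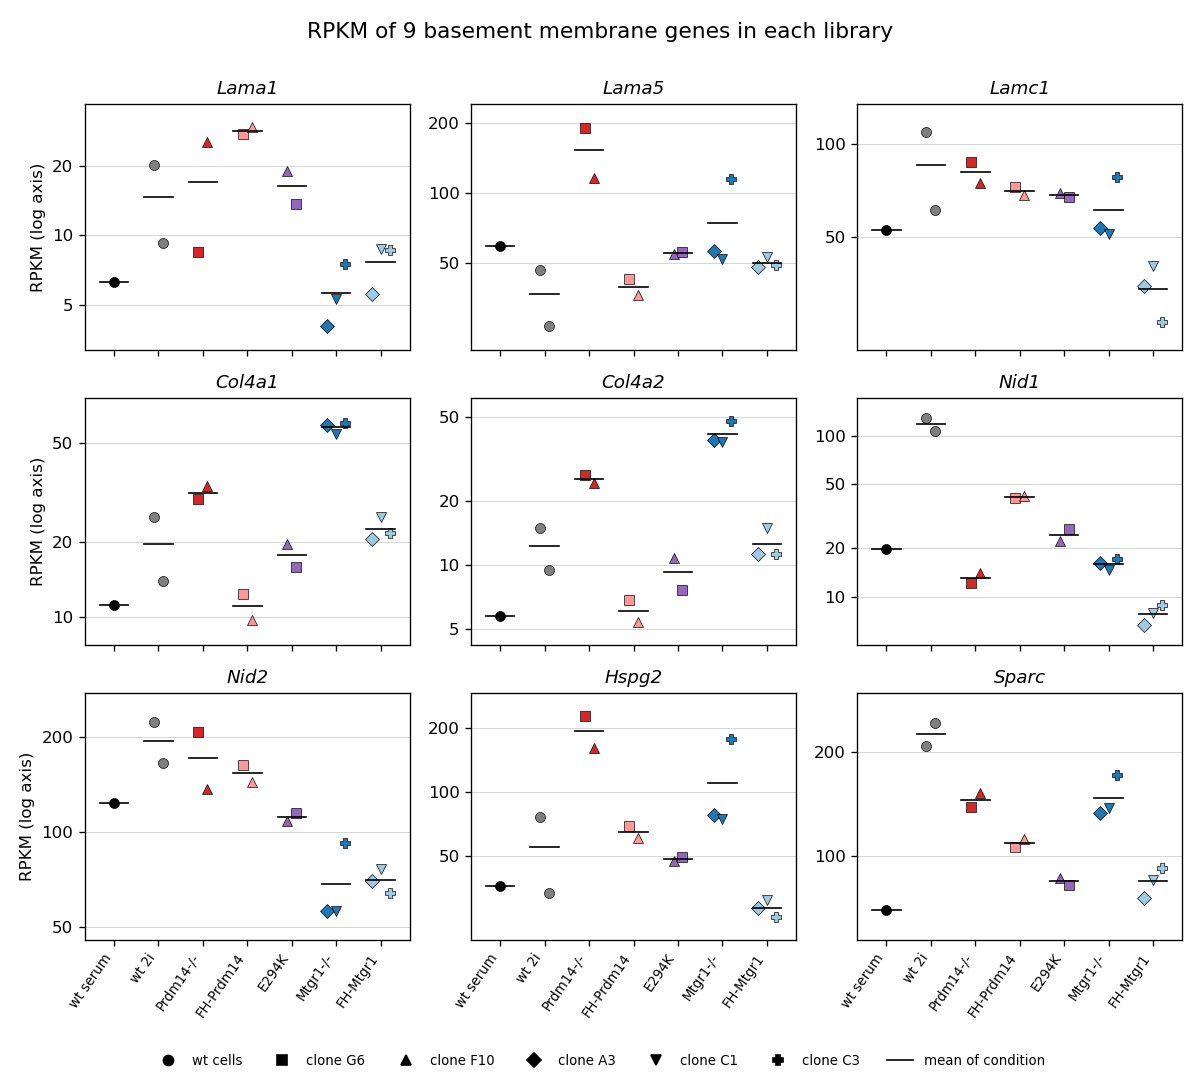
RPKM of the 9 basement membrane genes in each of the 15 libraries, on log axes, with the conditions on the x axis, symbols for the clones and a black line for the mean of the condition. Col4a1 and Col4a2 separate the knockouts from every other condition, Lama5 and Hspg2 are high in Prdm14-/- cells and in Mtgr1-/- clone C3, and Nid1 and Sparc are highest in 2i+LIF.

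The 9 genes did not vary as 1 unit. The r of each gene with the mean of the other 8 over the 15 libraries ranged from 0.141 for Lama1 and 0.156 for Nid1 to 0.802 for Hspg2 and 0.837 for Lamc1. Lama5 and Hspg2 had an r of 0.782, Lamc1 and Nid2 one of 0.761, and Lama1 and Col4a1 one of -0.495. The genes whose levels most resembled the mean of the 9 were Pbxip1 (r = 0.972), Ring1 (0.955), Llgl2 (0.954), Agrn (0.950) and Keap1 (0.941), over the same 15 libraries, which share lines and conditions. Agrn encodes agrin, another heparan sulfate proteoglycan of basement membranes. These genes lie at the 76.7 to 95.4 percentile of transcript GC content.

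Other components of the basement membrane were taken from a list of 24 genes, of which 13 passed the filter. In Mtgr1-/- relative to FH-Mtgr1, 8 of the 13 rose and 1 fell (26.2% and 26.1% of all genes), with a median of 0.80 on the log2 scale, and in Prdm14-/- relative to FH-Prdm14, 6 rose and 1 fell (11.4% and 13.8%), with a median of 0.72. The latter 7 calls were 2 without Prdm14-/- clone G6, and 3 and 4 without the FH-Prdm14 line of G6 or of F10. Among all genes, too, fewer were called in each of these fits, which leave 1 library in a condition. Tinagl1, a secreted matrix glycoprotein, rose by 1.75 in Mtgr1-/- and by 2.81 in Prdm14-/- cells relative to the rescue lines (limma, adjusted p = 0.00062 and 0.00031). Pxdn encodes peroxidasin, which crosslinks type IV collagen, and rose by 1.23 and 2.02 (adjusted p = 0.0016 and 0.00066). Agrn rose by 1.57 in Mtgr1-/- cells (adjusted p = 0.00052) and was at 0.75 ± 0.34 in Prdm14-/- cells (adjusted p = 0.13). In E294K relative to Prdm14-/- cells 10 of the 13 fell and 0 rose (17.8% and 15.1% of all genes), with 3 calls without Prdm14-/- clone G6 and 5 and 6 without the E294K line of F10 or of G6.

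The receptors of the basement membrane, integrins, dystroglycan, Bcam and the collagen receptor Ddr1, were represented by 8 tested genes of 10. In Mtgr1-/- cells 7 rose and 0 fell relative to FH-Mtgr1 (26.2% and 26.1% of all genes), and in Prdm14-/- cells 5 rose and 1 fell relative to FH-Prdm14 (11.4% and 13.8%), with medians of 0.94 and 0.88. Without either FH-Prdm14 line the latter 6 calls were 3. Fewer of all genes were called in those fits as well. Itga3, a chain of a laminin receptor, was at 63.2, 62.7 and 150.4 RPKM in Mtgr1-/- cells and at 12.2, 15.4 and 11.3 in FH-Mtgr1 (2.66, limma, adjusted p = 7.1e-05). It rose by 2.28 in Prdm14-/- cells (adjusted p = 0.0022). Bcam, which binds the laminin alpha chain encoded by Lama5, rose by 1.79 and 2.12 (adjusted p = 6.1e-05 and 0.00025). Ddr1 rose by 1.77 and 1.89 (adjusted p = 0.00041 and 0.0026). Itga7, another laminin-binding integrin chain, was the exception in Prdm14-/- cells, where it fell by 0.84 (adjusted p = 0.046), and in Mtgr1-/- cells it rose by 1.01 (adjusted p = 0.0029).

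Of 15 genes for the folding, modification and processing of collagen, 13 were tested. Serpinh1, the collagen chaperone Hsp47, was at 70.7, 57.5 and 122 RPKM in Mtgr1-/- cells and at 37.6, 43.4 and 38.9 in FH-Mtgr1 (0.98, limma, adjusted p = 0.0036). In Prdm14-/- cells it was at 113 and 85.9 RPKM against 17.7 and 17.1 in FH-Prdm14 (2.47, adjusted p = 0.00010). Bmp1, a protease that trims procollagen and laminin chains, rose by 3.02 and 2.28 (adjusted p = 1.0e-05 and 0.00076). The prolyl hydroxylase P4ha1 and the lysyl hydroxylase Plod2 fell in Mtgr1-/- cells, by 2.33 and 1.02 (adjusted p = 3.0e-05 and 0.0014), so the list as a whole had 5 higher and 2 lower genes (26.2% and 26.1% of all genes) with a median of 0.14. In Prdm14-/- cells 4 rose and 1 fell (11.4% and 13.8%), with a median of 0.13, and these 5 calls were 2 without any 1 of the 4 libraries and 3 without a filter on low values.

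**Figure D5:**
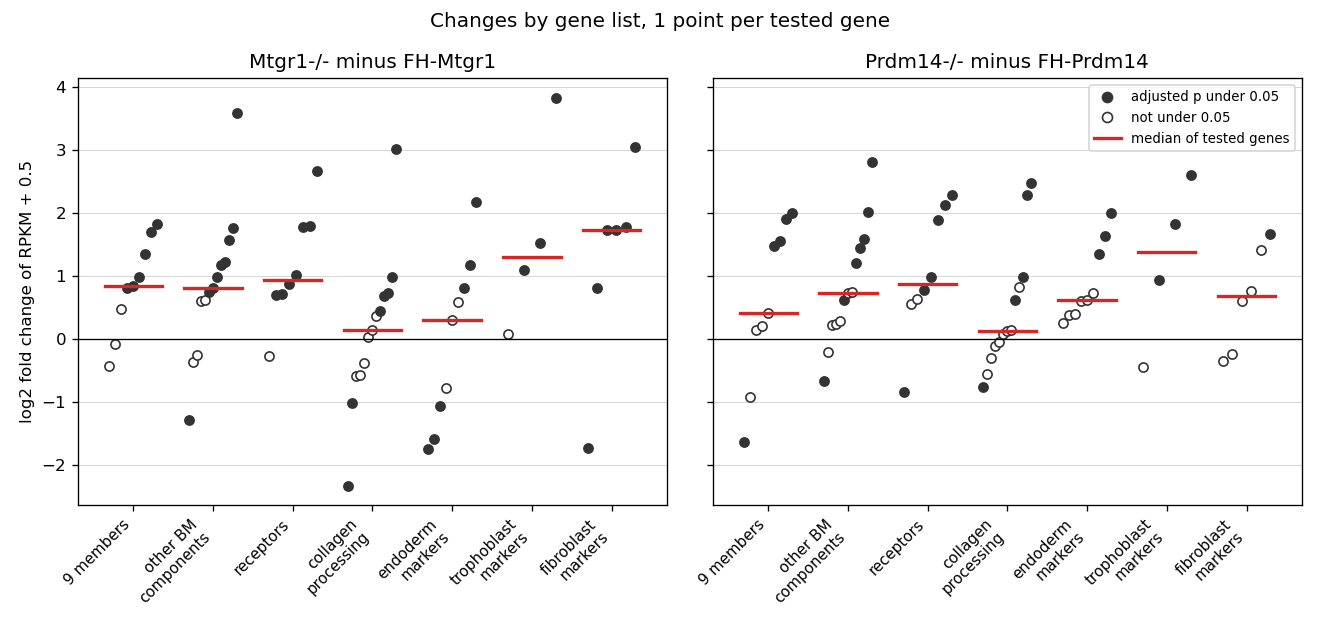
Log2 fold change of RPKM + 0.5 (y axis) for each tested gene of 7 lists (x axis) in Mtgr1-/- minus FH-Mtgr1 (left) and Prdm14-/- minus FH-Prdm14 (right); filled points have a limma adjusted p under 0.05, and red lines are the medians of the tested genes. BM stands for basement membrane, and the median of the receptors, 0.94 and 0.88, is above that of collagen processing, 0.14 and 0.13.

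Markers of other cell types moved beside the basement membrane genes, and their part in the changes was not tested. Of 8 trophoblast markers 4 were tested, and 3 rose in each knockout relative to its rescue line. Of all genes, 26.2% were called higher in Mtgr1-/- cells and 11.4% in Prdm14-/- cells in these comparisons. The summed level of the trophoblast markers was 110.1 to 140.5 RPKM in Mtgr1-/- cells against 15.0 to 17.2 in FH-Mtgr1. It was 79.1 to 102 in Prdm14-/- cells against 20.6 to 23.5 in FH-Prdm14. Most of this was the keratin Krt7, at 89.2, 88.1 and 116 RPKM in the Mtgr1-/- clones, while Cdx2 did not exceed 1.19 RPKM, Elf5 did not exceed 0.497 and Tpbpa was listed at 0 in 11 of the 15 libraries. Of 10 fibroblast markers 6 were tested, and 5 rose and 1, Thy1, fell in Mtgr1-/- relative to FH-Mtgr1 (26.2% and 26.1% of all genes). The fibroblast sum was 26.4 to 50.1 RPKM in Mtgr1-/- cells and 22.0 to 29.8 in FH-Mtgr1, which overlap. Col5a1 was at 12.0, 10.5 and 20.3 RPKM against 1.61, 1.58 and 0.654, while Col3a1, Postn, Dcn and Lum did not exceed 0.619 RPKM in any library.

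Visceral endoderm markers were low throughout. Afp and Ttr did not exceed 0.112 and 0.212 RPKM. Of the 4 tested genes of 9, 2 fell in Mtgr1-/- relative to FH-Mtgr1 (26.1% of all genes). Of the same 4 genes, 1 fell in Prdm14-/- relative to FH-Prdm14 (13.8% of all genes). The 7 mESC markers had a summed level of 843 to 934 RPKM in Mtgr1-/- cells, 851 to 1088 in Prdm14-/- cells and 1345 in wt serum+LIF, of which Pou5f1 made up 512 to 552, 308 to 395 and 585 RPKM. Relative to the rescue lines 6 of the 7 fell in Prdm14-/- cells (13.8% of all genes), and 2 fell and 1 rose in Mtgr1-/- cells (26.1% and 26.2%). Of all genes, 22.1% were called lower and 14.9% higher in Mtgr1-/- cells against wt serum+LIF. These shares were 13.7% and 11.7% in Prdm14-/- cells. Relative to wt serum+LIF 5 of the 7 fell and 0 rose in Mtgr1-/- cells, with a median of -1.31. In Prdm14-/- cells 2 fell and 0 rose (limma). The calls in Prdm14-/- cells were lost without clone G6, where fewer of all genes were called as well. That fit leaves 1 library in each compared condition.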

How the data were processed

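The study sequenced oligo-dT selected mRNA as single-end reads, aligned them to mm9 with Tophat and counted them on RefSeq genes with HTSeq. Tool versions are not given in the sources used here. The paper names a NextSeq or a HiSeq instrument, with different read lengths. The instrument of each library is not given either, so batches by platform could not be checked. The authors deposited RPKM values, 1 file per library, with gene lengths. RPKM times length was a whole multiple of the step of 1 read for 100.0% of values (tolerance 0.01), which gave the reads per library. Values were taken as log2(RPKM + 0.5), which understates changes of low genes, for the 13477 genes that reached an RPKM of 1 in 2 or more libraries. All 15 libraries entered 1 linear model with a mean per condition (limma 3.58.1, R 4.3.3, moderated with an intensity trend), and Benjamini-Hochberg adjustment ran over all these genes, with a threshold of 0.05. Changes are given on this log2 scale with standard errors. The fit was tested on simulated data. Figures and summaries used Python 3.11.15.

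The 9 genes and all gene lists were chosen with earlier results of these data known. From the other lists at most 4 genes per comparison are named, those with the smallest adjusted p, plus Lamb1 as the laminin beta chain; Lamb2, Agrn in Prdm14-/- cells, Itga7, Plod2, Snai1, Plat and the marker genes given by level only were named after their values were seen. A result that this rule selects is not reported here. Rescue lines carry the clone names of their knockouts, which pairs them. Deviations of the same clone from the condition means correlated at 0.299 for Prdm14-/- and FH-Prdm14, 0.080 for E294K and FH-Prdm14, and 0.063, -0.182 and 0.028 for Mtgr1 clones A3, C1 and C3. Alternatives were other pseudocounts (0.1 and 1), no filter, only the compared conditions, median-of-ratios scaling, voom on the recovered reads, an adjustment for GC content (lowess, span 0.3), a block by clone, and leaving out each library. The block together with the GC adjustment was added after the data were seen. No pair of libraries of the same condition agreed within sampling noise, and libraries of different conditions were not compared in this way. Promoter windows came from RefSeq (GRCm38.p6) and gene positions from NCBIM37. The series also has 11 ChIP-seq samples, not analysed here.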

Additional observations from a re-analysis of the deposited data

Results flagged for a closer look

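For 2 of the 9 genes, the change relative to the own rescue line differed between the knockouts in a test of that difference (limma, Benjamini-Hochberg adjusted p under 0.05). In the same test 31.4% of all genes were called. Nid1 had a difference of 2.62 on the log2 scale (Mtgr1 change minus Prdm14 change), higher in 3 of 3 Mtgr1-/- clones than in any FH-Mtgr1 line and lower in 2 of 2 Prdm14-/- clones than in any FH-Prdm14 line. Lama5 had a difference of -1.43, with a rise in 2 of 2 Prdm14-/- clones and a level above all FH-Mtgr1 lines in Mtgr1-/- clones A3 and C3 but not in C1. Single libraries were not tested as outliers, since no condition has more than 3 libraries.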

How the results depend on the processing

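Of 1125 alternative values of the 9 genes, 1010 kept direction and call, 69 lost a call, 26 gained one and 20 changed sign, none of them called. Of 47 calls, 25 were kept under every alternative run, and 4 were lost only when the fit held just the compared conditions. The block by clone (replicate block) changed no call among the 9 genes, with 6 called in Mtgr1-/- against FH-Mtgr1, 5 in Prdm14-/- against FH-Prdm14, 1 in E294K against FH-Prdm14, 6 in E294K against Prdm14-/- and 2 for the difference between the changes. With only the compared conditions, limma called 3 of the 9 for Mtgr1-/- against wt, 3 for Prdm14-/- against wt, 7 for E294K against FH-Prdm14, 3 for Mtgr1-/- against Prdm14-/- and 0 for 2i+LIF against serum+LIF, where 2 had an unadjusted p under 0.05 and the fit has fewer libraries. Among all genes, the fit of only the compared conditions called 53.5% for E294K relative to FH-Prdm14, and the main model 19.5%. For Mtgr1-/- relative to wt these shares were 24.9% and 37.0%, and for Prdm14-/- relative to wt 4.64% and 25.4%. They were 26.3% and 35.4% for Mtgr1-/- relative to Prdm14-/-, and 0% and 22.9% for 2i+LIF relative to serum+LIF. E294K against FH-Prdm14 gave 2 calls under median-of-ratios scaling (19.6% of all genes). It gave 4 with the GC adjustment, with or without the replicate block (18.5% and 21.9% of all genes). Without a filter the difference between the changes gave 1 (22.8% of all genes). Without single libraries the calls ranged from 0 to 1 for E294K against FH-Prdm14 (0 without either FH-Prdm14 line or E294K of F10, where 1 to 3 had an unadjusted p under 0.05), 3 (without Prdm14-/- clone G6) to 6 for E294K against Prdm14-/-, 2 (without Mtgr1-/- clone A3 or Prdm14-/- clone G6; 3 without Mtgr1-/- clone C1 or Prdm14-/- clone F10) to 5 for Mtgr1-/- against Prdm14-/-, 2 to 5 (without 2i+LIF library 2) for 2i+LIF against serum+LIF, 5 (without FH-Prdm14 of F10) to 7 for FH-Prdm14 against FH-Mtgr1 and 1 (without Mtgr1-/- clone A3 or C1, the FH-Mtgr1 line of C1, Prdm14-/- clone G6 or either FH-Prdm14 line) to 2 for the difference between the changes. The values that changed sign, as ranges without single libraries on the log2 scale, were -0.31 to 0.040 (Nid2) in Mtgr1-/- against FH-Mtgr1, -0.40 to 0.0067 (Lama1), -0.13 to 0.44 (Lama5) and -0.0077 to 0.30 (Lamc1) in Mtgr1-/- against wt, -0.16 to 0.43 (Nid2) in Prdm14-/- against FH-Prdm14, -0.65 to 0.90 (Lama1) in E294K against Prdm14-/-, -0.10 to 0.081 (Sparc) in Mtgr1-/- against Prdm14-/-, -0.11 to 1.07 (Hspg2) in 2i+LIF against serum+LIF, and -0.28 to 1.27 (Lama1), -0.30 to 0.037 (Col4a1), -0.51 to 0.084 (Nid2) and -0.14 to 0.51 (Hspg2) for the difference between the changes. In E294K against FH-Prdm14, Lamc1 was at 0.015 under median-of-ratios scaling and 0.12 with the GC adjustment, and Hspg2 at 0.085 with it; adding the replicate block to the GC adjustment left both at these values. Without any single library the share of all genes called was also lower for E294K against FH-Prdm14 and against Prdm14-/-. The same held for Prdm14-/- against FH-Prdm14 and for FH-Prdm14 against FH-Mtgr1. For Mtgr1-/- against Prdm14-/- and for the difference between the changes, the share was lower without any library except Mtgr1-/- clone C3. For 2i+LIF against serum+LIF it was higher without either 2i+LIF library. Median-of-ratios scaling moved all genes by 0.12 in Mtgr1-/- against wt and by -0.12 in FH-Prdm14 against FH-Mtgr1, and by less than 0.1 in the other comparisons. The cause of these differences was not tested. The wt serum+LIF condition rests on 1 library, and its values have no replicate check.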
